A study of Mus musculus with 30 samples.

Results

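The transcripts of 10 integrin subunit genes were followed in brain endothelial cells (ECs) of the mouse: the alpha subunits Itga1, Itga2, Itga3, Itga5, Itga6 and Itgav and the beta subunits Itgb1, Itgb3, Itgb4 and Itgb5. They were chosen by name, as 10 of 54393 annotated genes and of 21847 protein-coding genes, and all 10 were measured in each of the 14 RNA-seq libraries. The libraries form 4 groups. The 2 libraries of acutely isolated ECs came from adult Tie2-GFP mice, in which GFP marks ECs, and hold GFP-positive cells sorted from cerebrum and cerebellum, whose data the authors combined. The 2 GFP-negative libraries hold the sorted cells without GFP. The 6 WT cultures were brain ECs of young adult male mice grown for 8 days on collagen type I in medium with serum, after puromycin had been used to kill cells other than ECs. WT replicates 1 and 2 came from C57BL/6J mice by isolation method A, and WT replicates 3 to 6 came from Ctnnb1 flex3/+;Tie2-GFP mice, which carry the floxed allele without a Cre, by method B. The mice behind the 4 stabilized cultures were Ctnnb1 flex3/+;Pdgfb-CreER;Tie2-GFP and had received 4HT, which activates CreER, as pups, so that Cre in ECs removes exon 3 of 1 Ctnnb1 allele and stabilizes beta-catenin. These mice were adult males as well, and their ECs were also treated with puromycin and grown for 8 days in the same medium on collagen. For RNA-seq, method A gave stabilized replicates 1 and 2, and method B gave 3 and 4. The Ctnnb1 flex3/+;Tie2-GFP controls had received 4HT as well, and for the C57BL/6J controls the wording of the study leaves this open. The sources differ on WT replicates 5 and 6, which the Methods, followed here, put under method B and a figure legend under method A. Each culture experiment pooled the brains of several mice and gave 2 wells, and these wells are the replicates, so that p values measure a spread that is partly technical.

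Integrins are receptors of the cell surface that join 1 alpha and 1 beta subunit and tie the extracellular matrix to the actin cytoskeleton. The alpha subunit largely sets the ligand. Itga1 and Itga2 form receptors for collagen, Itga3 and Itga6 for laminin, which is a main protein of the vascular basement membrane, and Itga5 and Itgav for ligands with an RGD motif, such as fibronectin and vitronectin. Itgb1 pairs with all 6 of these alpha subunits, Itgb3 and Itgb5 pair with Itgav in ECs, and Itgb4 pairs only with Itga6.

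The genes lie on 6 chromosomes of GRCm38, and the coordinates are those of GENCODE M21. Of the alpha subunits, Itga1 (ENSMUSG00000042284.10) spans 114953096 to 115101964 and Itga2 (ENSMUSG00000015533.9) spans 114833081 to 114932100, side by side on the minus strand of chromosome 13. Itga6 (ENSMUSG00000027111.15), at 71745616 to 71858416, and Itgav (ENSMUSG00000027087.11), at 83724397 to 83806916, are on the plus strand of chromosome 2. Itga3 (ENSMUSG00000001507.16) is on the minus strand of chromosome 11, at 95044474 to 95076801, and Itga5 (ENSMUSG00000000555.8) on the minus strand of chromosome 15, at 103344286 to 103366763. Of the beta subunits, all on plus strands, Itgb1 (ENSMUSG00000025809.15) lies on chromosome 8 at 128685654 to 128733200 and Itgb5 (ENSMUSG00000022817.15) on chromosome 16 at 33829665 to 33949338. Itgb3 (ENSMUSG00000020689.4), at 104608000 to 104670476, and Itgb4 (ENSMUSG00000020758.15), at 115974709 to 116008412, are on chromosome 11. Itga1 shares exons with a second annotated gene, Gm49395, whose TPM was 0.139 to 7.72 over the 14 libraries, and the division of shared reads between them is an estimate.

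ATAC-seq, which finds open chromatin, was done on the same kinds of cells (2 libraries from acute isolation, 6 from WT and 2 from stabilized cultures), and 6 stretches of it are shown because their state differed between acutely isolated and cultured ECs. Each is the 200 bases around the summit of an open region and is written on the plus strand of the RefSeq copy of GRCm38. For Itga5 (chr15:103368276-103368475, upstream of the gene), Itgav (chr2:83758771-83758970, intron), Itgb1 (chr8:128680069-128680268, upstream), Itgb3 (chr11:104631422-104631621, intron) and Itga1 (chr13:114964348-114964547, intron), the region had a peak in all 6 WT cultures and in neither acutely isolated library, and it is the one of that kind with the highest median fold enrichment at its gene. For Itga6 (chr2:71770531-71770730, intron of the upstream transcript Itga6-204), it had a peak in both acutely isolated libraries and in none of the cultures. Capitals mark letters that match TGANTCA, the motif of AP-1 factors such as Fos and Jun, or GGAATG, the motif of TEAD factors, whose reverse complement is CATTCC.
Itga5, open in culture: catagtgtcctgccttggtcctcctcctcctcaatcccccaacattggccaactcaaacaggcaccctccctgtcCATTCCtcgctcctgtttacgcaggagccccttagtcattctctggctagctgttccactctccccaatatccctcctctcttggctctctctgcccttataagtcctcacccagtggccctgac
Itgav, open in culture: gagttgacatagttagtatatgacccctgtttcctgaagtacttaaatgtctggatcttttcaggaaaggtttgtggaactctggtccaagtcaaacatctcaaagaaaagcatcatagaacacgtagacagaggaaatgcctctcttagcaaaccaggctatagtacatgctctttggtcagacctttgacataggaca
Itgb1, open in culture: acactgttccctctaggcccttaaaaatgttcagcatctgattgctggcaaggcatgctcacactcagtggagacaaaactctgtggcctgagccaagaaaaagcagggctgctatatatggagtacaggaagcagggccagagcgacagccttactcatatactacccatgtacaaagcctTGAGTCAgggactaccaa
Itgb3, open in culture: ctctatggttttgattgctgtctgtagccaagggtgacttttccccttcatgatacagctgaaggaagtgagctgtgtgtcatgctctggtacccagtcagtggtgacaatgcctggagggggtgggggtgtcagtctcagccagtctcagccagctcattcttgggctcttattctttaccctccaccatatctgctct
Itga1, open in culture: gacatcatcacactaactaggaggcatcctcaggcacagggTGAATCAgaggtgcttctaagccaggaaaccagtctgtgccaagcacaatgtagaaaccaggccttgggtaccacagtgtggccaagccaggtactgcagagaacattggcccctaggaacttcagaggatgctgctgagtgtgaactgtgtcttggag
Itga6, open in acutely isolated ECs: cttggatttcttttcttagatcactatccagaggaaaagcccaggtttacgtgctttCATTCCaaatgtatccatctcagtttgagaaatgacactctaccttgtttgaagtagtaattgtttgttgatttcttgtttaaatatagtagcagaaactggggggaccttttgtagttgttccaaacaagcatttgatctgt

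The libraries differ in more than their group. The total of the estimated counts was 53421411 to 94686456 in the 4 acutely isolated libraries, which were read as single reads of 75 cycles, and 24284843 to 65623544 in the 10 cultured libraries, which were read as pairs of 36 cycles except for the pairs of 150 cycles in WT replicates 3 and 4. Read format and culture cannot be told apart. TPM is a share of all transcripts after counts are divided by transcript length, and transcript records under 1000 bases held 73.7% to 77.6% of all TPM in the acutely isolated libraries and 39.0% to 75.9% in the cultures, so TPM is also given for coding records of 2000 bases or more alone. All 11 endothelial markers of a fixed list were at 5 TPM or more in the acutely isolated ECs and in both kinds of culture, against 1 of 11 in GFP-negative cells. From acute isolation to WT culture 4 of the 11 were called lower (an adjusted p under 0.05 in edgeR and over 2-fold change), Flt1 most (log2 fold change −4.54), and 1, Emcn, higher (2.83). The 5 erythrocyte markers summed to 5448 to 41099 TPM in acutely isolated ECs and to at most 1.39 in the cultures, and the 6 platelet markers to 3.20 to 17.5 and at most 2.25 TPM. The 10 pericyte and smooth muscle markers summed to 484 to 575 TPM in acutely isolated ECs and to 508 to 3077 in WT cultures. Of these 10, 5 were called lower and 3 higher in WT cultures. Rgs5, Kcnj8 and Abcc9 of pericytes had log2 fold changes of −9.97, −8.52 and −8.84. Of the contractile genes, Myh11 had −4.40, while Tagln, Acta2 and Cnn1 had 5.51, 3.11 and 4.15 and were not called without either acutely isolated library (adjusted p 0.0516 to 0.110). The part of other cells in the integrin levels was not tested, and in such bulk samples fewer cells of a type and less RNA per cell cannot be told apart.

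To see which subunits brain ECs hold in the animal, the acutely isolated ECs were compared with the GFP-negative cells. Itgb1 and Itga6, the latter of laminin receptors, were the most abundant of the 10 in ECs, and Itga6 and Itga1 were called higher there. Itga6 had a TPM of 156 and 157 in the ECs and of 7.56 and 17.6 in the GFP-negative cells. The groups lay far apart, and the log2 fold change was 3.16 (SE 0.32, adjusted p 0.00228). Over coding records of 2000 bases or more, the ratio of the mean TPM was 6.40 for Itga6 and 6.83 for Itga5. The fold change of Itga6 and those that follow come from edgeR's quasi-likelihood test on counts, with Benjamini-Hochberg adjustment over all 15116 genes tested, and "called" means an adjusted p under 0.05, over 2-fold change and no replicate of the higher group under 5 TPM. Itga1, of the collagen receptor, was at 44.9 and 33.2 TPM in ECs and at 9.52 and 15.3 in GFP-negative cells. It too was higher in both EC libraries, by 2.002 (log2, SE 0.36, adjusted p 0.0107).

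Itgb5 and Itgav, which together form a vitronectin receptor, stood the other way. Itgb5 was at 9.32 and 8.73 TPM in ECs and at 122 and 153 in GFP-negative cells, a log2 difference of −2.97 (SE 0.45, adjusted p 0.00665). Itgav was at 5.51 and 8.39 TPM in ECs and at 34.9 and 23.1 in GFP-negative cells, and it fell by 1.74 (SE 0.38, adjusted p 0.0193). Both were lower in each EC library than in each GFP-negative library, but without GFP-negative replicate 1 the adjusted p of Itgav was 0.0752. Called higher were thus 2 of the 10 subunits, where 8.28% of all genes were, and called lower 2 of 10, where 7.55% were.

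The other 6 subunits were not called. Itga5, of the fibronectin receptor, had a log2 fold change of 3.05 (adjusted p 0.0119), and Itga2 one of −4.07 (adjusted p 0.0240), but both stood under the TPM minimum. Itga5 was at 3.80 and 3.28 TPM in ECs and at 0.329 and 0.642 in GFP-negative cells. Itga2 was at 0.0485 and 0.0466 TPM in ECs and at 1.37 and 0.495 in GFP-negative cells, so that the groups did not overlap for either gene. For Itgb1, at 190 and 160 TPM in ECs and 106 and 211 in GFP-negative cells, the groups overlapped. The median log2 fold change of the 10 subunits was −0.15, beside −0.06 over all genes. Of the 16 integrin subunit genes outside the 10, 3 were called lower in ECs, where 7.55% of all genes were, and the median of the 16 was −4.39. These were Itga7, Itga8 and Itgb8, with log2 fold changes of −2.93, −3.91 and −6.60.

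**Figure D1:**
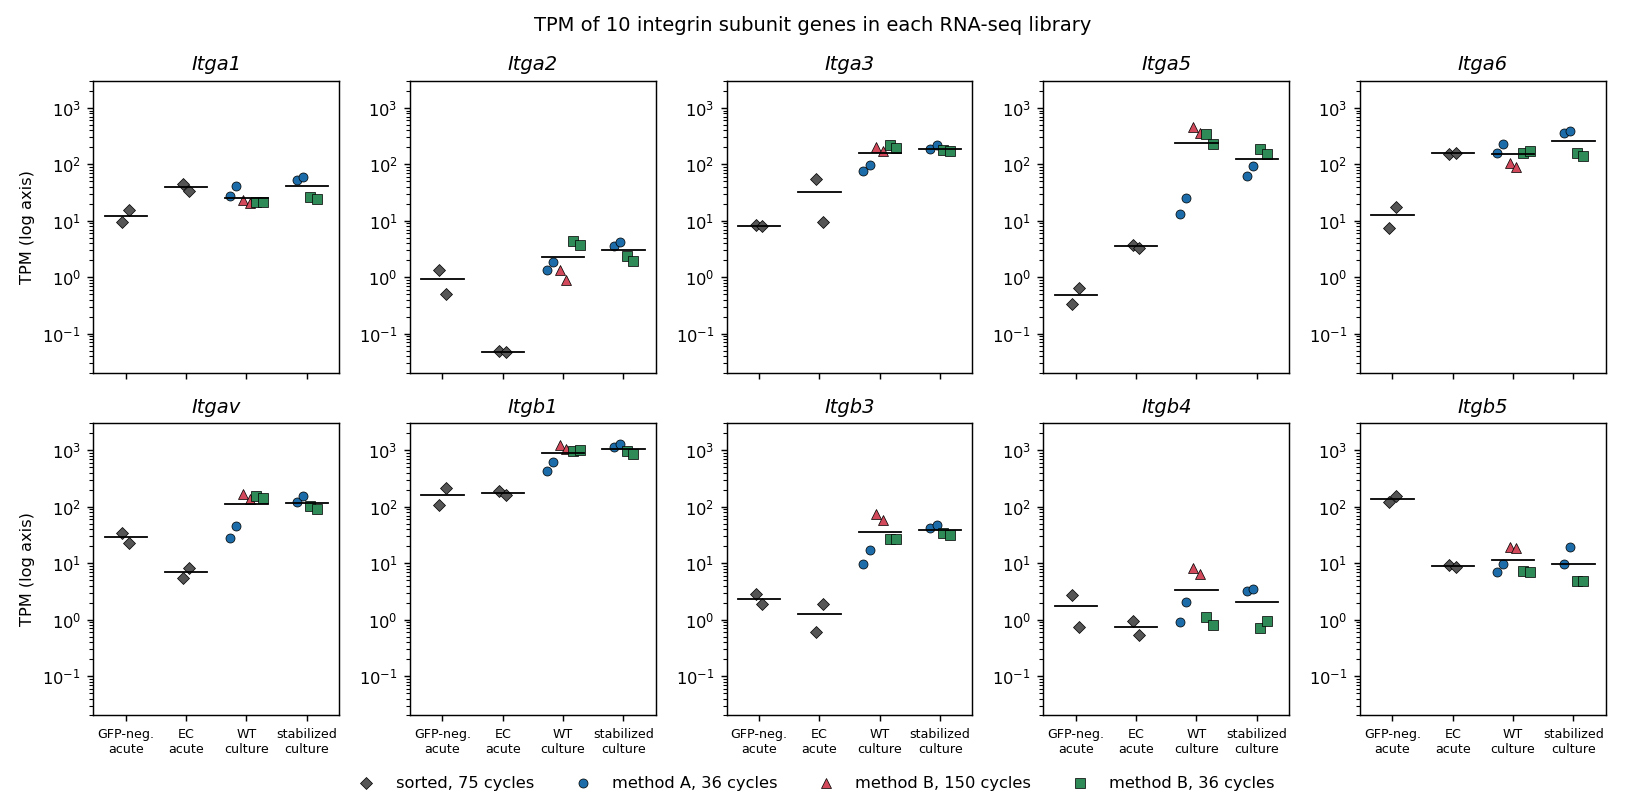
TPM of the 10 subunit genes (log axis) in each of the 14 RNA-seq libraries, by group, with a line at each group's mean and symbols for isolation method and read length. Itga5 lay at 3.28 and 3.80 in acutely isolated ECs and between 13.3 and 455 in WT cultures, while Itga6 lay at 156 and 157 and between 90.4 and 226.

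The effect of 8 days in culture was then measured by comparing the WT cultures with the acutely isolated ECs. Of the 10 subunits, 5 were called higher in culture, namely Itga5, Itga3, Itgb3, Itgav and Itgb1, and 1, Itga1, was called lower. Over all 13798 genes tested, 13.5% were called higher and 10.2% lower. The 10 had a median change of 2.03 on the log2 scale, beside 0.10 over all genes. Since the 10 were named with results of these libraries known, these counts describe them only.

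Itga5, whose product pairs with that of Itgb1 as a receptor for fibronectin, changed most among the called subunits and varied most between experiments. It was at 3.80 and 3.28 TPM in acutely isolated ECs and at 13.3 (lowest), 284 (median) and 455 (highest) in the 6 WT cultures. All cultures lay above both acutely isolated libraries, yet the method A wells, at 13.3 and 25.6, lay far below the method B wells, at 227 or more. The log2 fold change was 4.85 (SE 1.43, adjusted p 0.0224). Within experiments it was 1.63 (SE 0.37) for method A, 4.82 (SE 0.34) for method B with 150 cycles and 5.79 (SE 0.42) for method B with 36 cycles. Without acutely isolated replicate 1 or 2 the adjusted p of Itga5 was 0.107 or 0.131.

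Itgav, the alpha subunit that pairs with Itgb3 and Itgb5, followed the same order of experiments. It was at 5.51 and 8.39 TPM in acutely isolated ECs and at 28.4, 140 and 171 (lowest, median, highest) in WT cultures. The groups did not overlap, and the lowest culture wells were again those of method A. Itgav rose by 2.54 (log2, SE 0.64, adjusted p 0.0116), from 1.54 in method A to 2.36 and 3.24 in the 2 method B experiments, and its adjusted p was 0.0849 without acutely isolated replicate 2. Its partner Itgb3, which in platelets also pairs with Itga2b, was at 0.605 and 1.92 TPM in acutely isolated ECs and at 9.84, 27.3 and 74.2 in WT cultures. It too was higher in each culture, by 3.55 (log2, SE 0.59, adjusted p 0.00169), and the call held without each library in turn.

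Itga3, of a laminin receptor, was at 54.6 and 9.45 TPM in acutely isolated ECs and at 77.8, 186 and 218 in WT cultures. All cultures were higher, but the 2 acutely isolated libraries differed widely, and a record of 549 bases (Itga3-206) held 94.3% of the TPM of Itga3 in replicate 1 and 27.4% in replicate 2. On coding records of 2000 bases or more Itga3 was at 1.87 and 2.71 TPM in acutely isolated ECs and at 62.2 to 181 in WT cultures. The log2 fold change of counts was 3.77 (SE 0.83, adjusted p 0.00647) over all records and 4.68 (SE 0.74, adjusted p 0.00151) over the long coding records. When transcript length entered the fit as an offset it was 1.56 and not called (adjusted p 0.148), and without acutely isolated replicate 2 the adjusted p was 0.0508.

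Itgb1, the common beta partner, was the most abundant subunit in each of the 3 EC groups. It was at 190 and 160 TPM in acutely isolated ECs and at 429, 991 and 1269 in WT cultures, where each well was higher than both acutely isolated libraries. The log2 fold change was 1.53 (SE 0.50, adjusted p 0.0346). It was 1.07, 1.21 and 2.09 in the 3 experiments, and not called in that of method A (adjusted p 0.0563). The call was the weakest of the 5, since the adjusted p passed 0.05 without either acutely isolated library (0.0579 and 0.183), without WT replicate 5 or 6 (0.0516 and 0.0551) and with the wells of an experiment summed (0.116).

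Itga1 was the subunit called lower. It was at 44.9 and 33.2 TPM in acutely isolated ECs and at 20.6, 22.5 and 40.9 in WT cultures, so that WT replicate 2 reached into the range of the acutely isolated libraries. On long coding records, at 20.7 and 28.6 TPM against 3.92 to 20.1, the groups did not overlap. On the log2 scale the counts of Itga1 fell by 2.15 (SE 0.58, adjusted p 0.0148), and in the 3 experiments by 1.51, 3.67 and 2.03. With the offset for transcript length the log2 fold change was −1.16 and not called (adjusted p 0.0988), nor was it without acutely isolated replicate 1 (adjusted p 0.0927) or with the wells summed (adjusted p 0.0523).

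Over all records, Itga6 was high before and after culture. It was at 156 and 157 TPM in acutely isolated ECs and at 90.4, 161 and 226 in WT cultures, which spread to both sides. On long coding records, at 23.9 and 33.2 TPM against 75.9 to 121, every culture was higher. The log2 fold change of counts over all records was 0.21 (SE 0.60, adjusted p 0.795). It turned to −1.24 in the experiment of 150 cycles and to −0.47 with the offset for transcript length. Itgb4, the partner of Itga6 in hemidesmosomes, was at 0.959 and 0.537 TPM in acutely isolated ECs and at 0.798 to 8.30 in WT cultures, with a log2 fold change of 1.23 (adjusted p 0.0854). Only the 2 wells of 150 cycles lay above 5 TPM.

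Itga2, of a collagen receptor, stayed low. It was at 0.0485 and 0.0466 TPM in acutely isolated ECs and at 0.899 to 4.46 in WT cultures, and although its log2 fold change was 4.54 (adjusted p 0.00971), it did not reach the TPM minimum. Itgb5 was at 9.32 and 8.73 TPM in acutely isolated ECs and at 6.85, 8.33 and 19.0 in WT cultures, and the groups overlapped. Its log2 fold change of 0.99 (adjusted p 0.0233) was just under the limit of 2-fold, whereas the long coding records gave 1.26 (adjusted p 0.00999) and a call. Short records held 87.8% and 79.6% of the TPM of Itgb5 in the acutely isolated ECs.

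With TPM of all records, 6 of the 10 subunits had every culture above both acutely isolated libraries, where 30.4% of all genes did, and 0 had every culture below, where 15.9% did. With TPM of the long coding records alone, 9 lay above and 1, Itga1, below, beside 41.7% and 11.1% of all genes. In edgeR's quasi-likelihood test on the counts of these long coding records, 6 were called higher and 1 lower, beside 10% and 7.39% of all genes. The median difference of log2(TPM + 1) was 1.90 for the 10 and 0.29 for all genes over all records, and 2.64 and 0.63 over the long coding records. For Itga6 this difference was −0.10 over all records and 1.65 over the long coding records.

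**Figure D2:**
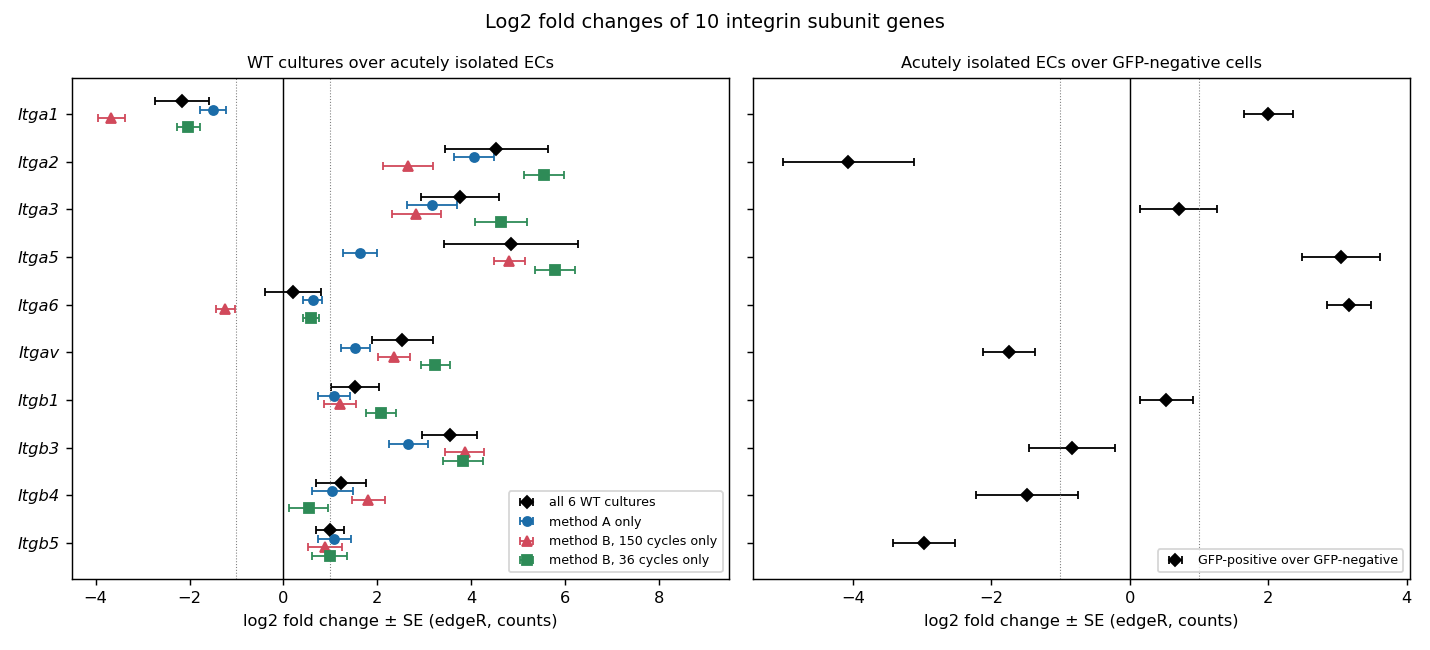
Log2 fold changes ± SE from edgeR on counts, for the 10 subunit genes, of WT cultures over acutely isolated ECs (left, over all 6 cultures and for each experiment of 2 wells) and of acutely isolated ECs over GFP-negative cells (right). Dotted lines mark a change of 2-fold. In culture Itga5 changed by 1.63, 4.82 and 5.79 in the 3 experiments, and Itga6 by 0.63, −1.24 and 0.58.

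Levels set side by side, per length, show how the pool of subunits was made up. In acutely isolated ECs the mean TPM fell in the order Itgb1 (175 ± 20.7, SD, n = 2), Itga6 (157 ± 1.02), Itga1 (39.0 ± 8.26), Itga3 (32.0 ± 32.0), Itgb5 (9.02 ± 0.41), Itgav (6.95 ± 2.04), Itga5 (3.54 ± 0.37), Itgb3 (1.26 ± 0.93), Itgb4 (0.748 ± 0.30) and Itga2 (0.0476 ± 0.0013). Over all records, only Itga1 with Itga3 and Itgb3 with Itgb4 overlapped with their neighbour. The order changed over the long coding records. There Itga6 (23.9 and 33.2 TPM) overlapped with Itga1 (20.7 and 28.6), though it was higher in each library. Itga3 (1.87 and 2.71) lay below Itgav (4.86 and 4.26) and overlapped with Itga5 (2.66 and 2.88). In WT cultures Itgb1 came first (896 ± 312, n = 6), then Itga5 (238 ± 184), Itga3 (162 ± 59.3), Itga6 (153 ± 49.1), Itgav (113 ± 60.5), Itgb3 (35.5 ± 25.0) and Itga1 (25.9 ± 7.77), and the range of each of these across wells overlapped with the next. Within every single well, however, Itgb1 lay above Itga5. The place of Itga5 came from the method B wells, since in those of method A, at 13.3 and 25.6 TPM, it lay below Itga6, Itga3, Itgav and Itga1. Itgb5 (11.3 ± 5.83), Itgb4 (3.29 ± 3.29) and Itga2 (2.27 ± 1.46) followed, below all values of Itga1. In GFP-negative cells the order began with Itgb1 (159 ± 74.1, n = 2), Itgb5 (138 ± 21.8) and Itgav (29.0 ± 8.32). Over the long coding records Itgb5 (12.6 and 25.5 TPM) overlapped there with Itgav (19.6 and 22.5). In WT cultures Itgb5 (5.84 to 19.0) overlapped on those records with Itga1 (3.92 to 20.1).

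Of the summed TPM of the 6 alpha subunits, the laminin receptor subunits Itga3 and Itga6 held 78.8% and 79.5% in the acutely isolated ECs and 32.4% to 77.3% (median 45.3%) in WT cultures. The RGD receptor subunits Itga5 and Itgav held 3.52% and 5.51% in acutely isolated ECs and 13.4% to 65.0% (median 51.6%) in WT cultures. The collagen receptor subunits held 15.7% and 17.0%, and 2.60% to 9.73% in culture. In each of the 3 classes the cultures and the acutely isolated libraries did not overlap, and the method A wells lay closest to the acutely isolated ECs. Counted over long coding records, the laminin class held 47.7% and 50.1% in acutely isolated ECs and 30.6% to 74.4% in WT cultures, which overlap, while the collagen class held 38.4% and 40.0% against 0.701% to 7.76%, and the RGD class 9.96% and 13.9% against 18.5% to 68.7%. On these long records the 4 method B wells, at 30.6% to 44.8%, lay below both acutely isolated libraries in the laminin class, and the method A wells, at 74.4% and 70.1%, lay above.

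Itgb1 made up 93.5% and 94.6% of the summed TPM of the 4 beta subunits in acutely isolated ECs and 92.6% to 96.7% in WT cultures, but 45.4% and 57.5% in GFP-negative cells, where Itgb5 held 41.7% to 52.3%. In the GFP-negative cells 89.7% and 83.3% of the TPM of Itgb5 was in records under 1000 bases, and over long coding records Itgb1 held 75.2% and 77.1% there and Itgb5 17.1% to 22.5%. The ratio of Itgb1 to the summed alpha subunits was 0.716 and 0.758 in acutely isolated ECs and 1.08 to 1.41 in WT cultures, and over long coding records these ranges met, at 1.23 and 1.88 against 1.28 to 2.19. The 10 genes together took 0.0383% and 0.0465% of all TPM in acutely isolated ECs and 0.0757% to 0.233% in WT cultures.

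**Figure D3:**
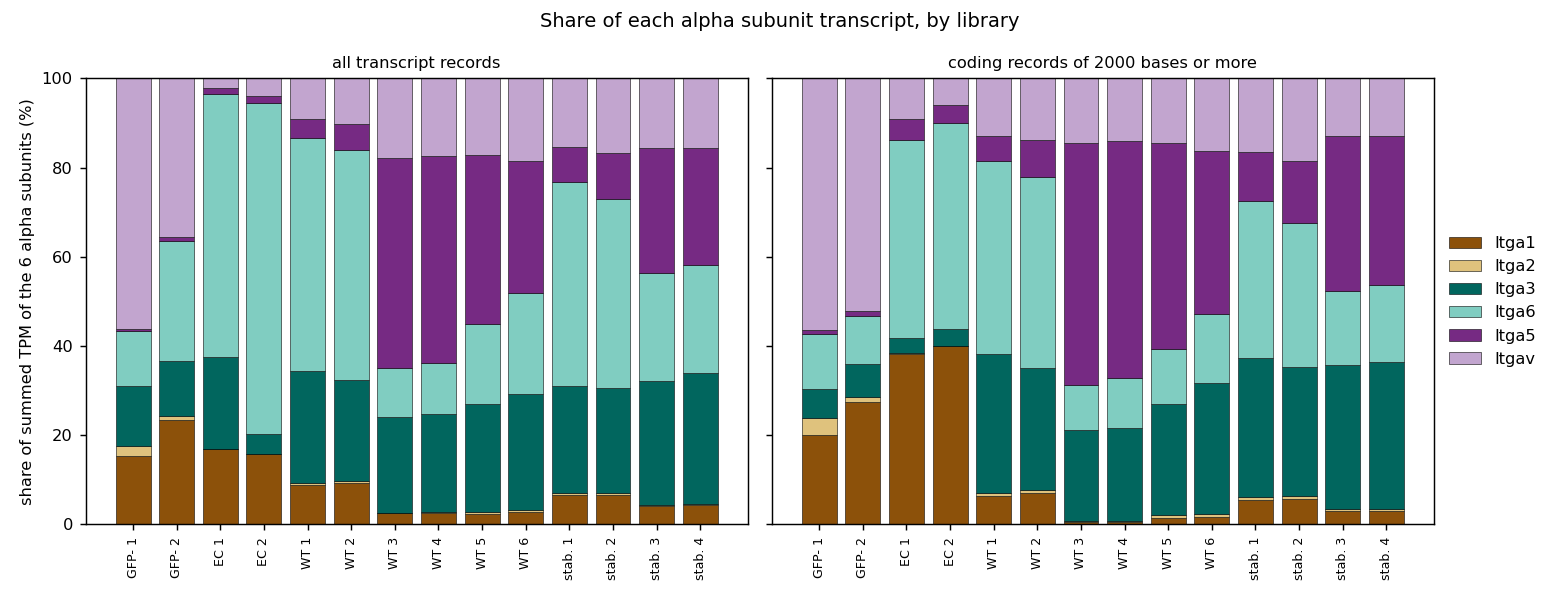
Share of each alpha subunit in the summed TPM of the 6 alpha subunits, 1 bar for each of the 14 libraries, over all transcript records (left) and over coding records of 2000 bases or more (right). Itga5 and Itgav together held 3.52% and 5.51% in acutely isolated ECs (EC 1 and 2) and 13.4% to 65.0% in WT cultures over all records.

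The transcript records behind these levels also differed. For Itga6, the record Itga6-204, of 707 bases with a start upstream of the others, held 88.3 and 78.6 TPM in the acutely isolated ECs, which is 56.6% and 50.0% of the gene, and stood at 0 in all 10 cultures. Both coding records that differ by an exon near the 3′ end, which sets the tail of the protein in the cell, were seen in culture. Itga6-201, with the exon, held 14.8% and 20.2% of the TPM of the gene in acutely isolated ECs and 36.5% to 69.8% in WT cultures, and Itga6-202, without it, was at 0 in both acutely isolated libraries and at 3.53% to 16.7% in WT cultures. Itgb1-201, the main coding record of Itgb1, held 53.6% and 55.0% of the gene in acutely isolated ECs and 96.2% to 99.8% in WT cultures, and Itgb1-202 18.0% and 23.6% against 0.0149% to 3.71%. Itgav-206, of 688 bases, was at 0 in acutely isolated ECs and at 4.47% to 29.8% in WT cultures. These ranges of TPM shares did not overlap. As a share of the estimated counts of the gene, which are not divided by length, Itga6-201 held 55.8% and 58.8% in acutely isolated ECs and 48.8% to 74.0% in WT cultures, which overlap. The short records weighed less on that scale, with 14.9% and 10.7% for Itga6-204 in acutely isolated ECs and 0.262% to 2.13% for Itgav-206 in WT cultures. Itgb1-201 held 72.8% and 76.5% of the counts against 97.1% or more. An exact permutation test on either share (two-sided) cannot go below p = 0.0714 with 2 against 6 libraries, and none of the 30 records tested passed after adjustment. Shares at 0 are estimates by Salmon, and single reads and paired reads divide counts between records in different ways, which cannot be told apart from culture.

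Other genes of the pathway were taken from lists, whose counts stand beside the 13.5% called higher and 10.2% called lower of all genes. Of the other integrin subunits, 10 of 16 could be tested and 1 was called higher in culture, with a median log2 fold change of −0.54. It was Itga8, a partner of Itgb1 (2.99, SE 0.73, adjusted p 0.00984), and its adjusted p was 0.0704 or 0.0645 without acutely isolated replicate 1 or 2 and 0.210 with the offset for transcript length. Of 34 matrix ligands tested, 7 were called higher and 1 lower (median 0.57, beside 0.10 over all genes). Higher, on the log2 scale, were Tnc (11.28), Thbs1 (9.64) and Spp1 (7.38), which code for tenascin-C, thrombospondin-1 and osteopontin, and lower was Vtn (−9.72), which codes for vitronectin. Spp1 was at 0.0129 and 1.28 TPM in acutely isolated ECs, and its log2 fold change was 6.40 and not called without replicate 1 of these (adjusted p 0.0689) and 11.93 without replicate 2. Vtn had 148 and 279 TPM in acutely isolated ECs and at most 0.388 in WT cultures. Of 36 genes of the adhesion complex inside the cell, 8 were called higher and 5 lower (median 1.21). Without acutely isolated replicate 1 these counts were 2 and 1, without replicate 2 they were 3 and 4, and without WT replicate 1, 2 or 3 the count of lower genes was 3. Among them Src, a kinase of adhesion signaling, changed by 3.45, Flna, which crosslinks actin, by 3.11, Itgb1bp1, which binds the tail of Itgb1, by 2.79 and Parvb, a partner of integrin-linked kinase, by −4.85. Src and Flna were not called without either acutely isolated library (adjusted p 0.0829 to 0.158) or with the offset for transcript length (0.378 and 0.0664). Of 15 membrane partners 4 were called higher and 3 lower (median 0.55), including Plaur (6.13), Cd63 (3.94), Cav1 (3.15) and Bsg (−2.75). Without acutely isolated replicate 2 these counts were 2 and 2. Cd63 was not called without either acutely isolated library (adjusted p 0.166 and 0.197) or without WT replicate 3, 4, 5 or 6 (0.0541 to 0.0571), and in the method A wells its log2 fold change was 0.79.

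Across the 14 libraries, the genes whose log2(TPM + 1) was most like that of Itga5 were Wee1 (Pearson's r = 0.990), Actg1 (0.988) and Actr3 (0.985), out of 11601 genes compared. Those most like Itga1 were Ccdc125 (0.953), Dock9 (0.951) and Stab1 (0.949). The libraries fall into groups that differ in culture, depth and read format, so that these values describe the likeness of the patterns only.

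To ask whether stabilization of beta-catenin alters the subunits in culture, the 4 stabilized were compared with the 6 WT cultures. None of the 10 subunits was called, and their values overlapped between the groups for all 10. By edgeR's quasi-likelihood test 0% of the 12971 genes tested were called higher and 0% lower, with a smallest adjusted p of 0.118. At an unadjusted p under 0.05, 561 genes were higher and 861 lower, none of them one of the 10 subunits, and DESeq2 called 15 genes higher and 3 lower. The smallest adjusted p of the 10 was 0.587, for Itga1. The share of genes whose TPM did not overlap was 0.413% for higher and 0.271% for lower.

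Itga6 was at 362, 389, 160 and 141 TPM in stabilized replicates 1 to 4, beside 90.4 to 226 in WT cultures. In TPM, the pair from method A lay above all WT cultures and the pair from method B within their range. Records under 1000 bases held 58.0% and 54.7% of all TPM in that method A pair, against 68.9% and 69.2% in WT replicates 1 and 2. The part of this shift in the TPM contrast was not tested. On counts, the log2 fold change of Itga6 was 0.48 (SE 0.40, adjusted p 0.666). By the interaction term described below, it differed between methods by −0.24 (method B minus method A, SE 0.088). Itga5 was at 62.2, 92.7, 186 and 154 TPM, inside the wide range of the WT cultures from 13.3 to 455, with a log2 fold change of −0.44 (SE 0.86). Itga1 was at 52.4, 59.6, 27 and 24.8 TPM, where again the method A pair was above every WT culture. On counts, its log2 fold change was 0.64 (SE 0.43), and its method B minus method A difference was 0.33 (SE 0.11). Itgb1 was at 1152, 1295, 971 and 848 TPM, with a log2 fold change of 0.24 (SE 0.28). For the other 6 subunits the log2 fold changes lay between −0.21 and 0.41, and their adjusted p values were 0.667 or more. The RGD receptor subunits held 23.3% to 43.7% of the alpha TPM in stabilized cultures, within the 13.4% to 65.0% of the WT cultures.

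The difference between stabilized and WT cultures was not the same in both isolation methods. On the 8 cultures of 36 cycles, the interaction term (stabilization by method) was tested in edgeR's quasi-likelihood fit, and 8 of the 10 subunits had an adjusted p under 0.05, where 49.5% of all 13369 genes tested did. In method A, Itga5 was at 13.3 and 25.6 TPM in WT wells and at 62.2 and 92.7 in stabilized wells, and its log2 fold change was 1.32 (SE 0.22, adjusted p 0.00318). In method B, it was at 340 and 227 TPM in WT wells and at 186 and 154 in stabilized wells, a change of −0.63 (log2, SE 0.20, adjusted p 0.0550). The values lay apart in both methods, in opposite directions, and method B minus method A was −1.93 (SE 0.34, adjusted p 0.00209). Itgav went the same ways, from 28.4 and 44.8 to 123 and 155 TPM in method A and from 154 and 141 to 102 and 90.4 in method B. Its log2 fold changes were 0.92 (adjusted p 0.00135) and −0.61 (adjusted p 0.00247), with a difference of −1.50 (SE 0.14, adjusted p 0.00015).

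Itga2 had log2 fold changes of 0.50 in method A and −0.85 in method B, and a difference of −1.33 (SE 0.16, adjusted p 0.000375). For Itga3, Itgb1, Itgb3 and Itga6 the differences were −0.56, −0.43, −0.52 and −0.24, and for Itga1 it was 0.33, with adjusted p values from 0.00197 to 0.0468. Itgb3 had positive log2 fold changes in both methods, 0.93 and 0.39. Itgb4 and Itgb5 had differences of −0.43 each, with adjusted p values of 0.351 and 0.272. Each combination of genotype and method is a single experiment of 2 wells, so that method, genotype of the WT mice and experiment cannot be told apart. If WT replicates 5 and 6 came by method A, as the legend has it, the values given for method B compare wells of different methods.

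**Figure D4:**
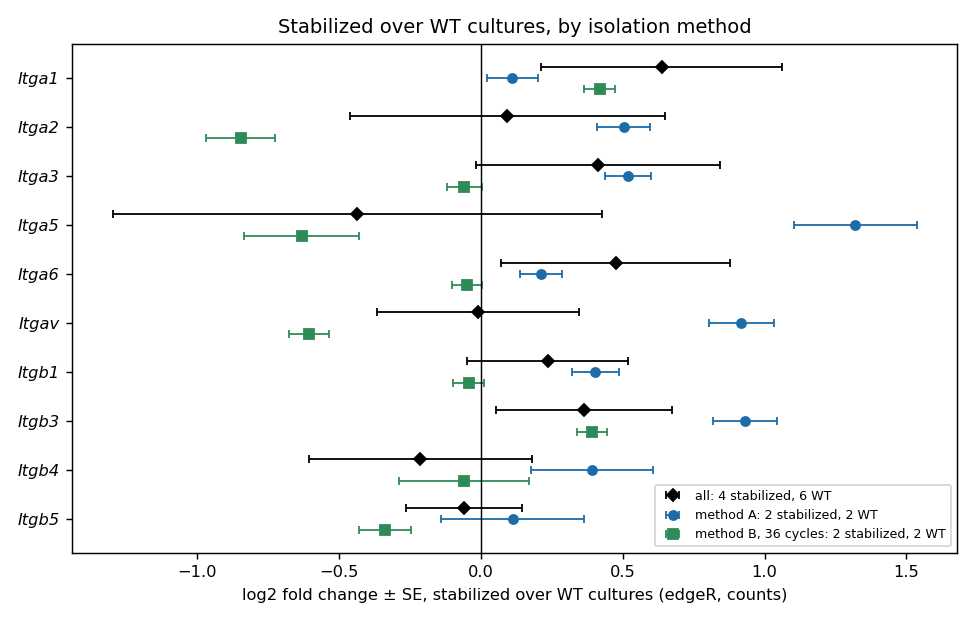
Log2 fold changes ± SE of stabilized over WT cultures (edgeR, counts) for the 10 subunit genes, over all 10 cultures and within each isolation method at 36 cycles, 2 against 2 wells. Itga5 and Itgav lay at 1.32 and 0.92 in method A and at −0.63 and −0.61 in method B.

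Open chromatin was compared over 109 regions at the 10 genes, each being a peak in at least 2 of the 10 ATAC-seq libraries within the gene or up to 10000 bases upstream. The promoters of 8 genes, all but Itga3 and Itgb4, had a peak in both acutely isolated libraries, all 6 WT cultures and both stabilized cultures, also those of the subunits whose transcripts were low in acutely isolated ECs, such as Itga2 and Itgb3. Itga3 had a promoter peak in 2 acutely isolated libraries, 5 WT cultures and 2 stabilized cultures, and Itgb4 in 1, 4 and 0. Of the 109 regions, 18 (16.5%) were gained, that is open in all 6 WT cultures and in neither acutely isolated library, 1 (0.917%) was lost and 16 (14.7%) were shared by all 8 libraries. Over all 104832 regions the shares were 9.74%, 3.53% and 16.2%.

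The gained regions lay at 7 genes: 4 each at Itga2 and Itgb3, 3 at Itgb5, 2 each at Itga1, Itgav and Itgb1, and 1 at Itga5. Itga3, Itga6 and Itgb4 had 0. They thus lay at 4 of the 5 subunits called higher, at Itga1, which was called lower, and at Itga2 and Itgb5, which were not called. The region upstream of Itgb1 printed above had its middle at −5560 bases from the start of the gene and a fold enrichment over background of 15.0, 20.7 and 24.2 (lowest, median, highest) in WT cultures and of 22.1 and 21 in stabilized cultures. The intronic region of Itga1 was at 9.04, 21.7 and 28.5, and that upstream of Itga5 at 4.28, 4.91 and 6.09 in WT cultures. The region lost in culture, at Itga6, had fold enrichments of 7.09 and 6.72 in the acutely isolated libraries.

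The number of the 109 regions that were open was 33 and 29 in acutely isolated ECs, 38 to 98 in WT cultures, and 80 and 83 in stabilized cultures. As shares these were 30.3% and 26.6%, 34.9% to 89.9%, and 73.4% and 76.1%, beside 31.9% and 28%, 29.2% to 85.4%, and 71.3% and 70.6% of all regions. WT replicates 1 and 2, of method A, had 59 and 38, fewer than the 90 to 98 of the WT cultures of method B. They also had the fewest peaks among the cultures, 50395 and 33122. Both stabilized cultures of ATAC-seq came by method B. Without WT replicate 2 the gained regions rose from 18 to 32. The part of the number of peaks in these counts was not tested.

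**Figure D5:**
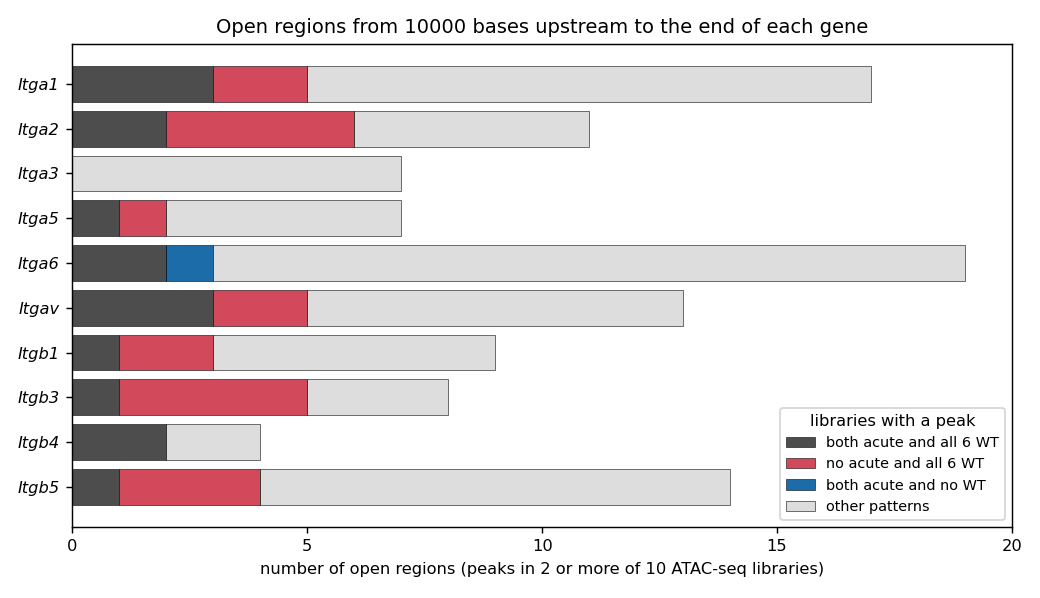
Number of open regions at each of the 10 subunit genes, from 10000 bases upstream to the end of the gene, by the libraries that had a peak. Of 109 regions 18 were open in all 6 WT cultures and no acutely isolated library, at 7 of the genes, and 1, at Itga6, was open only in acutely isolated ECs.

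The letters of an AP-1 motif, TGANTCA (which reads the same on both strands), stood in the 200 bases around the summit of 10 of the 18 gained regions (55.6%), and 49.3% of all gained regions held it, against 26.1% of all 104614 regions with a window, 10.7% of shared and 3.62% of lost ones. They included the Itgb1 and Itga1 regions printed above. GGAATG of TEAD factors, searched on both strands, stood in 6 of 18 (33.3%), beside 22.7% of all gained regions and 17.4% of all regions, and the printed regions of Itga5 and Itga6 held it. AGGAAG of ETS factors, with reverse complement CTTCCT, stood in 8 of 18 (44.4%), beside 44.1% and 38.2%. Of all 109 regions at the 10 genes, 36.7% held the AP-1 letters, 22.9% those of TEAD and 37.6% those of ETS. Of the 16 shared regions at these genes, the shares were 31.2%, 25.0% and 31.2%. The motifs of TEAD and ETS share the letters GGAA, so that the searches are not independent. The printed regions of Itgav and Itgb3 held neither of the 2 motifs shown in capitals.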

How the data were processed

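RNA-seq was measured in 14 libraries and ATAC-seq in 10, and 6 samples of cerebrum alone were not analysed here. The titles and genotypes of the deposited records gave the groups, and isolation method and read length came from the study's Methods. For RNA-seq the authors ran Salmon 0.14.0 on GENCODE M21 transcripts, and deposited 2 values per transcript (140198 in each library). These are an estimated count, not normalized, and the authors' TPM, which is adjusted for effective length and for the library's total. ATAC-seq reads had been aligned to GRCm38 (HISAT2 2.1.0), and MACS2 2.1.2 had been run on every library alone. The deposited peak lists give fold enrichment, −log10 p and −log10 q, and a score, which the authors' caller derives from q.

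Estimated counts and TPM were summed by gene identifier, and counts were rounded. The 21847 protein-coding genes were fitted in edgeR 4.0.16 under R 4.3.3 (TMM scaling, filterByExpr, glmQLFit, glmQLFTest), each comparison on its own libraries, with Benjamini-Hochberg adjustment. Standard errors are the log2 fold change over the root of F. DESeq2 1.42.0 was an alternative. The procedure was tested on simulated data. Peaks were kept at a fold enrichment over 2 and a −log10 q over 2 and merged across libraries. Other alternatives were library size scaling, an offset for transcript length, no filter on counts, no TPM minimum, 1 fit over all 14 libraries, leaving out each library, a replicate block, wells summed, single experiments, stricter peaks and a peak overlap of 50%. The fit on coding records of 2000 bases or more was added after seeing the data.

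The depth of 24284843 to 94686456 counts per library makes counting error small for all but the lowest subunits, and precision is set by how far libraries of a group differ. Stabilized RNA-seq replicate 4 is recorded with a molecule other than RNA, against its title and protocol, and was kept. The named genes are the 10 subunits, the members of lists with the largest called changes, the genes that define the markers and the 3 genes most like Itga5 and Itga1. The members and lists were chosen with earlier results of these data known.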

Additional observations from a re-analysis of the deposited data

Results flagged for a closer look

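Among the 20 groups of 4 to 6 libraries in which the TPM of a subunit was looked at for a value far from the rest, 1 had such a value, as chance gives in about 1 of 20. It was Itga1 in WT replicate 2, at 40.9 TPM, where the next highest WT culture was at 27.5, so that the gap was 0.66 of the range.

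For 8 subunits the log2 fold change of stabilized over WT cultures differed between isolation methods by the interaction term. Method B minus method A was −1.93 for Itga5, −1.50 for Itgav, −1.33 for Itga2, −0.56 for Itga3, −0.52 for Itgb3, −0.43 for Itgb1, −0.24 for Itga6 and 0.33 for Itga1. A share of 49.5% of all genes tested passed the same threshold, and each arm was 1 experiment of 2 wells.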

How the results depend on the processing

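The counts of subunits called in culture against acute isolation, 5 higher and 1 lower, were the same or within 1.5 times under most alternatives. Across the fits that each left out 1 library, no more than 6 were called higher and no more than 1 lower. Fewer subunits were called higher without either acutely isolated library than with all libraries. Over all genes, fewer were called higher in those fits as well. With 1 WT library left out, 1757 to 1900 genes of 13710 to 13820 tested were called higher and 1328 to 1437 lower. No subunit was called lower with the offset for transcript length or with wells summed (0 in each). Over all genes, 1815 of 13798 and 834 of 14069 were. In the 150-cycle experiment 2 subunits were called lower, beside 2065 of 13526 genes. For single subunits, 174 of the fold changes under an alternative kept direction and call, 14 lost and 9 gained the call, and 3 changed sign. These were Itga6 (−0.47) and Itgb5 (−0.46) with the length offset and Itga6 (−1.24) at 150 cycles. With 1 acutely isolated library left, that library is assumed to vary like the cultures.

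Against GFP-negative cells, 1 to 2 subunits were called lower when a library was left out, and 1 without GFP-negative replicate 1. Leaving out 1 library, Itga3 ranged from −0.28 to 1.24 and Itgb1 from −0.055 to 0.88, both lowest without acutely isolated replicate 1, and over the long coding records Itga3 was at −0.10. The long coding records also moved the makeup of the alpha pool, to 39.2% collagen, 48.9% laminin and 11.9% RGD receptor subunits in acutely isolated ECs and 26.2% collagen and 18.5% laminin in GFP-negative cells.

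In stabilized against WT cultures, 1 subunit (Itga5) was called in method A alone. Over all genes, 693 of 12860 were called higher in that fit and 120 lower. Signs turned for small fold changes. In method A Itga5 was at 1.32, Itgav at 0.92, Itgb4 at 0.39 and Itgb5 at 0.11. In method B at 36 cycles Itga2 was at −0.85, Itga3 at −0.059, Itga6 at −0.050 and Itgb1 at −0.044. With method as a term at 36 cycles, Itga2 was at −0.19, Itga5 at 0.34, Itgav at 0.15 and Itgb4 at 0.16. Itgav was also at 0.0016 with DESeq2, 0.12 with the length offset, 0.025 without a filter, 0.024 in the fit over all 14 libraries and 0.014 with wells summed. Leaving out 1 library gave −0.11 to 0.49 for Itga2, −0.14 to 0.19 for Itgav and −0.35 to 0.046 for Itgb5. The cause of these changes was not tested.

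No source ties libraries of the same number to 1 animal or sort, and numbers 1 and 2 of stabilized and WT cultures share isolation method A. The correlation of their deviations was −0.036 and 0.0448 for culture, 0.0588 for GFP and 0.529, 0.520, −0.00917 and 0.0457 for stabilization, where the crossed pairs of numbers 1 and 2 had 0.440 and 0.584. WT replicates 5 and 6 had 0.461 to 0.580 with stabilized replicates 3 and 4, and −0.607 to −0.413 with 1 and 2. With the replicate block Itga5 was at 0.79 and Itgav at 0.54 in stabilized against WT cultures and no subunit was called, while over all genes 138 were called higher and 44 lower. The block left the counts of subunits called in the other comparisons at 5 and 1 and at 2 and 2.

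Gained regions at the subunit genes ranged from 18 to 32 when a WT library was left out, with 32 without WT replicate 2. The stricter peak filter gave 18 gained regions of 95. With 2 acutely isolated libraries, a subunit that was not called may still differ.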
